A study of Mus musculus with 3 samples.

Results

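The nuclei described here form subcluster 0 of the excitatory neurons of the mouse olfactory bulb, the population that the study named T1, the middle tufted cells. Its members are all nuclei that the authors' deposited annotation assigns to subcluster 0, and they number 2128 of 31703 annotated nuclei. They came from 3 mice, with 522, 1059 and 547 nuclei in mice 1, 2 and 3. T1 was set against 6 other subclusters that the study named as external tufted cells (ET1, 703 nuclei, ET2, 471, and ET4, 883) and mitral cells (M1, 686 nuclei, M2, 1149, and M3, 326), each present in all 3 mice. The annotation holds numbers, and the names were matched to them through the marker genes of each type.

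RNA was measured in single nuclei with droplet libraries, 1 for each mouse. All mice were C57Bl/6 males, 7 weeks old by the study's methods, and all had the same treatment. A retrograde virus, rAAV-retro-CAG-H2B-GFP, which puts a green fluorescent histone under a general promoter into neurons that it enters through their axons, had been placed in AON and PCx, the anterior olfactory nucleus and piriform cortex, and nuclei positive for GFP and the DNA dye DRAQ5 were sorted from the bulb. There was no other condition, so the comparisons run between subclusters within the same 3 animals. The sort selected against neurons that the virus did not reach, and its purity was not tested here.

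Mitral and tufted cells are the projection neurons of the olfactory bulb. They take up sensory input in the glomeruli through an apical dendrite, exchange signals with inhibitory granule cells across dendrites of the external plexiform layer, and send glutamatergic axons to the olfactory cortex. Tufted cell bodies lie nearer the surface than mitral cell bodies, and tufted axons are known to favour the anterior part of the olfactory cortex. Among the genes used as T1 markers, Barhl2 encodes a homeodomain transcription factor of neurons, Vdr the nuclear receptor for the active form of vitamin D, and Olfr110 a member of the odorant receptor family, whose usual place of expression is the sensory neuron of the nose.

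Mouse 1 had 36.4% T1 among the nuclei of the 7 subclusters, with a 95% exact binomial interval of 33.9 to 39.0. The share was 30.6% (29.0 to 32.1) for mouse 2 and 37.8% (35.3 to 40.3) for mouse 3, and the mean was 34.9% ± 3.83 (SD, n = 3). The intervals cover counting error only, and mouse 2 lay below the other mice by more than its interval. The share depends on the sort and on which cells took up virus. Of the 2128 nuclei, 2034 (95.6%) had been in main cluster 2 of the first clustering and 84 in main cluster 5. The median T1 nucleus held 15743.5, 14652 and 18071 UMIs (counted molecules) in mice 1, 2 and 3, and 3929.5, 3886 and 4148 genes. M2 nuclei were deeper in each mouse, with medians of 21030.5, 19594 and 23455 UMIs, and M3 nuclei were shallower, with 6866, 5661.5 and 4402. Summed over nuclei, the T1 libraries held 8561548, 16961469 and 10403928 UMIs. The smallest of the 21 summed libraries, M1 of mouse 1, rests on 14 nuclei and 161593 UMIs, so that a low value in it can stand on 1 or 2 molecules.

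The name T1 was matched to subcluster 0 through its markers, so their values are a description and no independent check of the name. Barhl2 (chr5:106452523-106458166, minus strand; gene coordinates are GRCm38 from GENCODE M21) stood at 63.5, 60.1 and 63.4 CPM (UMIs per 1000000 of the library) in T1 of mice 1, 2 and 3. The 18 libraries of the other subclusters lay between 0 and 16.8 CPM, well below and without overlap. The log2 fold change of T1 against the mean of the other 6 was 3.57 (SE 0.16). Vdr (chr15:97854425-97910630, minus strand) stood at 42.7, 37.3 and 44.3 CPM in T1. The other libraries lay between 0 and 12.4 CPM, and the highest of them was M1 of mouse 1 with 2 UMIs. The log2 fold change of Vdr was 5.31 (SE 0.26). Olfr110, the remaining given marker, was high in T1 and in ET1 alike, as described below.

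**Figure D1:**
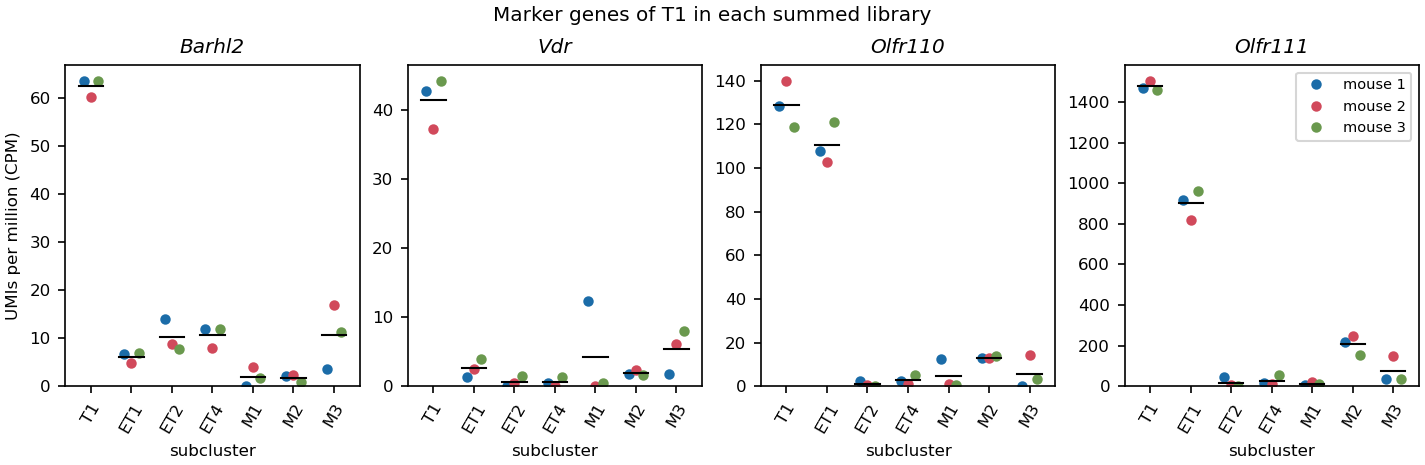
CPM of T1 marker genes in each summed library, 1 point per mouse with a line at their mean, for T1 and the other 6 subclusters. The T1 points of Barhl2 and Vdr lie above all other points, while those of Olfr110 overlap the ET1 points.

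A gene was called when its adjusted p (edgeR's quasi-likelihood test, Benjamini-Hochberg over 14696 genes) was under 0.05 and its absolute log2 fold change above 1. The clusters were built from these same counts, so the calls describe how reproducibly the types differ across the 3 mice and are no test that T1 exists as a type. Fold changes are against the mean of 6 logarithms, so a gene near 0 in some subclusters and high in another can be called higher in T1, and the fitted fold of such a gene depends on the prior count and is no bound. All comparisons share the T1 libraries.

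The bases before the start of the 3 given markers are shown because genes of unrelated families are high together in T1. Each run is the 250 bases upstream of the RefSeq start (GRCm38.p6), 5′ to 3′ on the gene's strand, and capitals mark GGGCGG or its reverse complement, a letter run known from Sp-family binding sites. The RefSeq start of Vdr lies downstream of the GENCODE one, so its window falls inside the gene span given above.
Olfr110, chr17:37492218-37492467, plus strand: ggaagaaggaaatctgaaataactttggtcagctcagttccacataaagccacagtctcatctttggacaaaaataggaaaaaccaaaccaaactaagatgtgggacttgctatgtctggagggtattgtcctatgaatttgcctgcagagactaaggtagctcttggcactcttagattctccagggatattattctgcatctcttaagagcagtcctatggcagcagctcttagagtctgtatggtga
Barhl2, chr5:106458167-106458416, minus strand: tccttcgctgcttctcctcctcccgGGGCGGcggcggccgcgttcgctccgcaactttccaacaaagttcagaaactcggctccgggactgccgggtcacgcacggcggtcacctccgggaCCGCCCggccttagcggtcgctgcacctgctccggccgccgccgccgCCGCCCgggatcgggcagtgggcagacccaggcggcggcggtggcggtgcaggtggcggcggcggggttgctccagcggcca
Vdr, chr15:97908297-97908546, minus strand: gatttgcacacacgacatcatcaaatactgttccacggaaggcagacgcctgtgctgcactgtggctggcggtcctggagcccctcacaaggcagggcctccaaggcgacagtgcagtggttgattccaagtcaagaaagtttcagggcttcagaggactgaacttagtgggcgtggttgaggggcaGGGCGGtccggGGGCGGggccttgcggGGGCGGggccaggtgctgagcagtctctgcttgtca
The windows differ in composition. That of Barhl2 is 74.8% G or C with 36 CpG pairs, a number reached by 2.58% of 32851 RefSeq windows of the same length. That of Vdr is 61.2% G or C with 11 CpG pairs and that of Olfr110 42.4% with 0, against medians of 52.4% and 6 over all windows. GGGCGG, read on both strands, occurs 3 times in the Barhl2 window and 3 times in the Vdr window, and 32.7% of all windows hold it. The other letter runs searched on both strands were TAATTG (in 7.17% of all windows), AGGTCA (14%), TATAAA (12.4%) and CACGTG (6.02%). None of these is in the windows shown, which says only that these letters are not in these 250 bases.

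Over all genes, 982 (6.68%) were called higher in T1 than the mean of the other 6 and 808 (5.5%) lower. Called higher than each of the other 6 were 69 genes (0.47%), and called lower than each were 49 (0.333%). Without mouse 2, which holds the most nuclei, 35 genes were called higher than each. The 3 T1 libraries lay above all 18 others in 337 genes (2.29%), of which 251 (1.71% of all tested) were also called higher, and below all 18 in 129 (0.878%), of which 97 (0.66%) were called lower. The nearest subclusters by number of calls were ET1, with 571 genes higher in T1 (3.89%) and 562 lower (3.82%), and M2, with 531 higher (3.61%) and 658 lower (4.48%). The widest difference was from ET4, with 1779 higher (12.1%) and 1842 lower (12.5%). ET2 gave 1440 higher (9.8%) and 1441 lower (9.81%), M1 1140 higher (7.76%) and 1351 lower (9.19%), and M3 1216 higher (8.27%) and 1460 lower (9.93%). Of 8 genes read from the study's T1 list, 7 passed the filter on low counts and all 7 were called higher. The list was chosen by the study on these samples and is not independent evidence of its direction. Its untested member is Kcna10. Its members beside the markers above include Cacna1g, a T-type calcium channel, and Fam84b. Fam84b stood at 21.1, 17 and 13.4 CPM in T1 and at a mean of 16.5 CPM in ET1, so that the 2 types were close for this gene.

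The odorant receptor genes of T1 lie side by side. Olfr110 (chr17:37492468-37500207), Olfr111 (chr17:37508030-37532449), Olfr112 (chr17:37561668-37569451), Olfr113 (chr17:37573877-37577663), Olfr114 (chr17:37589233-37592743) and Olfr115 (chr17:37608940-37627109) span 134.6 kb, the first 2 on the plus strand and the rest on the minus strand. All 6 were called higher in T1. Within 500 kb of Olfr110 the files list 39 Olfr genes, and the other 33 were all too low to be tested. Those 33 held 121 UMIs in the 2128 nuclei, with at most 19 in any gene, while the 6 held 93396. Of 1135 Olfr genes in the files 21 were tested, and outside the block the single call was Olfr678, at 2.79 CPM ± 0.981 (SD, n = 3) in T1 (log2 fold change 1.14, adjusted p = 0.018).

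Olfr111 stood at 1469, 1506 and 1457 CPM in T1. ET1 followed with a mean of 900.1 CPM ± 73.6 (SD, n = 3) and M2 with 206.1 ± 47.0, and the remaining subclusters were at 11.5 to 74.5 CPM on average. T1 was therefore highest for this gene, then ET1, then M2, and the log2 fold change against the mean of the other 6 was 4.72. Olfr110 stood at 128, 140 and 119 CPM in T1 and at a mean of 110 CPM ± 9.52 in ET1, and these overlapped. Against ET1 its log2 fold change was 0.27 (SE 0.21, adjusted p = 0.46). Olfr112 stood at 363, 402 and 417 CPM in T1 and 234 ± 31.5 in ET1, and Olfr115 at 432, 409 and 506 CPM against 246 ± 56.6. Olfr113 stood at 74.6, 72.5 and 67.4 CPM in T1 and 40.7 ± 8.67 in ET1, and Olfr114 at 85.1, 62.7 and 84.6 CPM against 47.6 ± 8.19. Each of the 6 genes was called higher than ET2, ET4, M1, M2 and M3. Against ET1 the T1 libraries lay above without overlap for all but Olfr110, and the adjusted p was 0.025 for Olfr113, 0.011 for Olfr114 and 0.025 for Olfr115, but no log2 fold change passed 1 (0.27 for Olfr110 to 0.92 for Olfr115). The order T1, ET1, M2 held for the means of all 6.

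**Figure D2:**
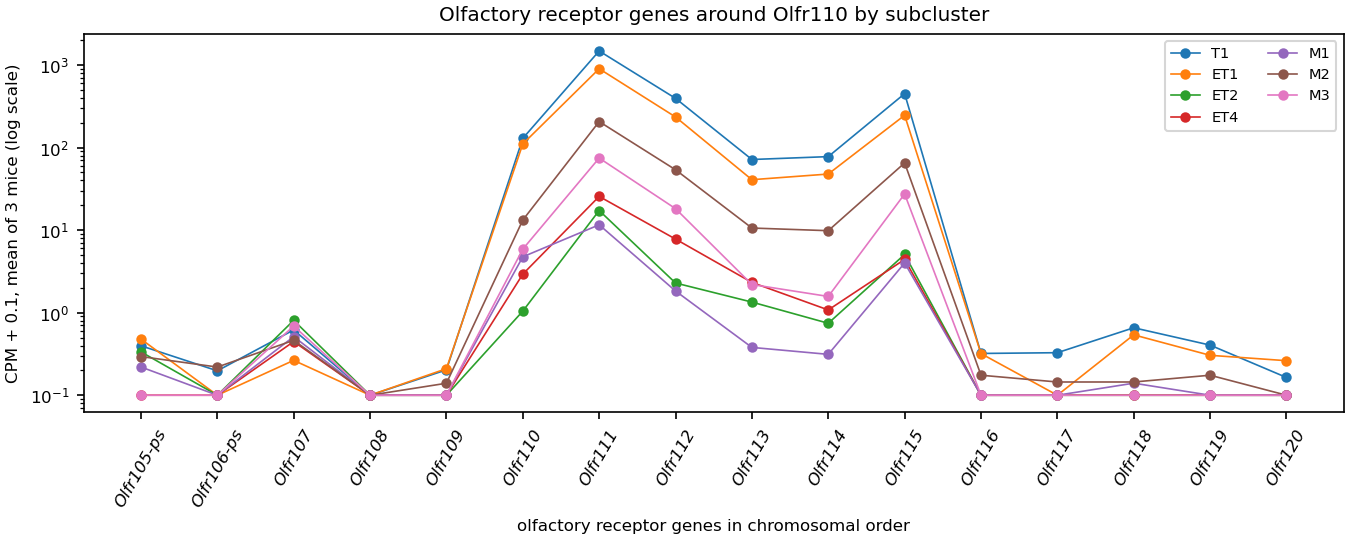
Mean CPM over the 3 mice, plus 0.1 and on a log axis, of Olfr genes in chromosomal order around Olfr110, with 1 line per subcluster. From Olfr110 to Olfr115 T1 is highest, followed by ET1 and then M2, and on either side all subclusters lie below 1 CPM.

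The division of counts among the 6 genes was read in the types with the most of them. Olfr111 took 57.5%, 58.1% and 55.0% of the UMIs of the block in T1 of mice 1, 2 and 3, and Olfr115 took 16.9%, 15.8% and 19.1%. Olfr112 took 14.2%, 15.5% and 15.7%. For Olfr111 the shares were 58.8%, 58.2% and 54.4% in ET1 and 57.4%, 59.0% and 55.5% in M2, within the range of the T1 mice or close to it. Olfr110 took 5.03%, 5.4% and 4.48% in T1, more in ET1 (6.89%, 7.29% and 6.84%), and 3.39%, 3.05% and 4.97% in M2. The genes differ in length, so these shares compare a gene with itself across types and not the genes with each other.

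How reads that match several copies were counted is not given in the sources used here, and the copies share sequence. Of the 31-base words in the annotated transcripts of Olfr110, 37.0% also occur in at least 1 of the other 5 genes. The share is 24.4% for Olfr111, 18.1% for Olfr113, 12.3% for Olfr114, 6.82% for Olfr115 and 6.51% for Olfr112. The split of counts between the single genes is uncertain for this reason, by an amount that was not measured, and Olfr115 also overlaps Olfr116 on the same strand. The likeness reaches into introns, and whether intronic reads were counted is not given in the sources used here. The last 120 bases of the intron before the final exon, read from GENCODE M21 transcripts on the minus strand (GRCm38.p6), are shown for 3 neighbours, with their shared run of 22 bases in capitals.
Olfr113, chr17:37575448-37575567: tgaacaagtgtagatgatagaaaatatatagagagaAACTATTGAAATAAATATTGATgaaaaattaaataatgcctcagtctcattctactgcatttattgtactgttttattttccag
Olfr114, chr17:37590378-37590497: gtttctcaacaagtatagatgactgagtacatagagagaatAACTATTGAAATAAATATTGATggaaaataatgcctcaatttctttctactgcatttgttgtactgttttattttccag
Olfr115, chr17:37610782-37610901: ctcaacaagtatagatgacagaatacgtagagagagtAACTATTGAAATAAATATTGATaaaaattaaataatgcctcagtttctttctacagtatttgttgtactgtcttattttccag
Aligned over these bases, Olfr113 and Olfr114 have the same base in 80.0% of columns, Olfr113 and Olfr115 in 86.8%, and Olfr114 and Olfr115 in 85.5%. In Olfr114 the 4 bases at the end of the window are exonic in another transcript.

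Odorant receptors signal in the nose through a dedicated cascade. Of 11 genes of olfactory transduction and its partners, 6 passed the filter, and edgeR and DESeq2 both called 0. Of the 6, 3 had an unadjusted p under 0.05, and the median log2 fold change was -0.01 against 0.01 over all genes.

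Beside the Olfr genes, the genes with the largest differences were mostly annotated without a name of function. Gm45895 stood at 351, 313 and 366 CPM in T1 (log2 fold change 5.02), Gm32122 at 14.1, 19.9 and 18.8 CPM (4.63), Gm39465 at 11, 9.26 and 12.6 CPM (5.10) and Gm36372 at 9.11, 7.84 and 8.46 CPM (4.19). Gm17473 stood at 6.77, 8.08 and 5.00 CPM (4.47) and lies antisense to Angpt1, which was higher in T1 as well. In each of these genes the T1 libraries lay above all 18 others. Among named genes, Ube2u, a ubiquitin-conjugating enzyme, stood at 17.6, 28.2 and 17.1 CPM (4.89), Tspan10, a tetraspanin, at 10.9, 7.78 and 6.54 CPM (4.53), and A1bg at 90.9, 79.1 and 80.1 CPM (4.54). A1bg overlaps the antisense gene 4930402D18Rik, and whether the counting used strand is not given in the sources used here. If strand was not used, the reads of such pairs cannot be told apart.

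Several signalling genes were higher in T1. They were chosen after their values were seen, and those other than Alk are among the 69 called against each of the other 6. Kitl, the ligand of the Kit receptor, stood at 722, 682 and 834 CPM, above ET1 (238 ± 39.4) and M2 (336 ± 41.3), with a log2 fold change of 3.62. Ryr1, a calcium release channel of the endoplasmic reticulum best known from skeletal muscle, stood at 168, 180 and 191 CPM, with the other 18 libraries between 3.59 and 84.2 CPM (3.67, SE 0.13). Angpt1, an angiopoietin, stood at 176, 207 and 192 CPM against at most 92.8 (3.39). Pdgfrb, a receptor of platelet-derived growth factor, stood at 24.5, 24.3 and 23.1 CPM against at most 10.9 (3.91). Dkk3, a secreted protein of the Dickkopf family, stood at 33.6, 15 and 20.6 CPM against at most 8.37 (3.73). Alk, a receptor tyrosine kinase, stood at 1177, 1226 and 1267 CPM, and was called against every subcluster other than M2, which had 624 ± 49.2 CPM (log2 fold change 3.81 against the mean of the 6).

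The genes with the largest deficit in T1 included adhesion and ion-handling genes that were present in all the other subclusters. Cdh4, a classical cadherin, stood at 4.20, 12 and 5.19 CPM in T1 and between 159 and 3183 CPM in the 18 other libraries. Its log2 fold change of -6.16 was the most negative of the 10 genes named as lower. Pcdh9, a protocadherin, stood at 86.4, 75.3 and 72.5 CPM against 380 to 5040 CPM (-3.94), and Samd12 at 11.9, 16.9 and 13.1 CPM against 30.9 to 446 CPM (-4.07). Kcnq3, a subunit of the M-type potassium channel, stood at 17.3, 30.4 and 19.8 CPM against 163 to 792 CPM (-3.95). Nell1, a secreted protein, stood at 46.7, 24.6 and 25.9 CPM against 188 to 844 CPM (-3.68). Each of these was lower than every other subcluster.

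The same held for the inositol trisphosphate receptor Itpr1, at 11.6, 7.78 and 5.86 CPM in T1 and 29.6 to 214 CPM elsewhere (log2 fold change -3.63). It also held for Slc24a2, a potassium-dependent sodium-calcium exchanger, at 25.2, 19.4 and 17.6 CPM against 125 to 877 CPM (-3.54), for the ubiquitin ligase Nedd4l at 9.81, 9.90 and 6.06 CPM against 37.1 to 246 CPM (-3.63), and for Cdhr3 at 2.22, 2.65 and 1.25 CPM against 4.13 to 164 CPM (-3.56). The transporter Slc7a14 was at 0.818, 1.00 and 0.769 CPM against 1.43 to 73.0 CPM (-3.69) and was not called against M2. Camk2a, a calcium-dependent kinase of excitatory synapses, was also lower than in each, at 8.06, 13.3 and 6.06 CPM against 32.2 to 252 CPM (-2.87).

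**Figure D3:**
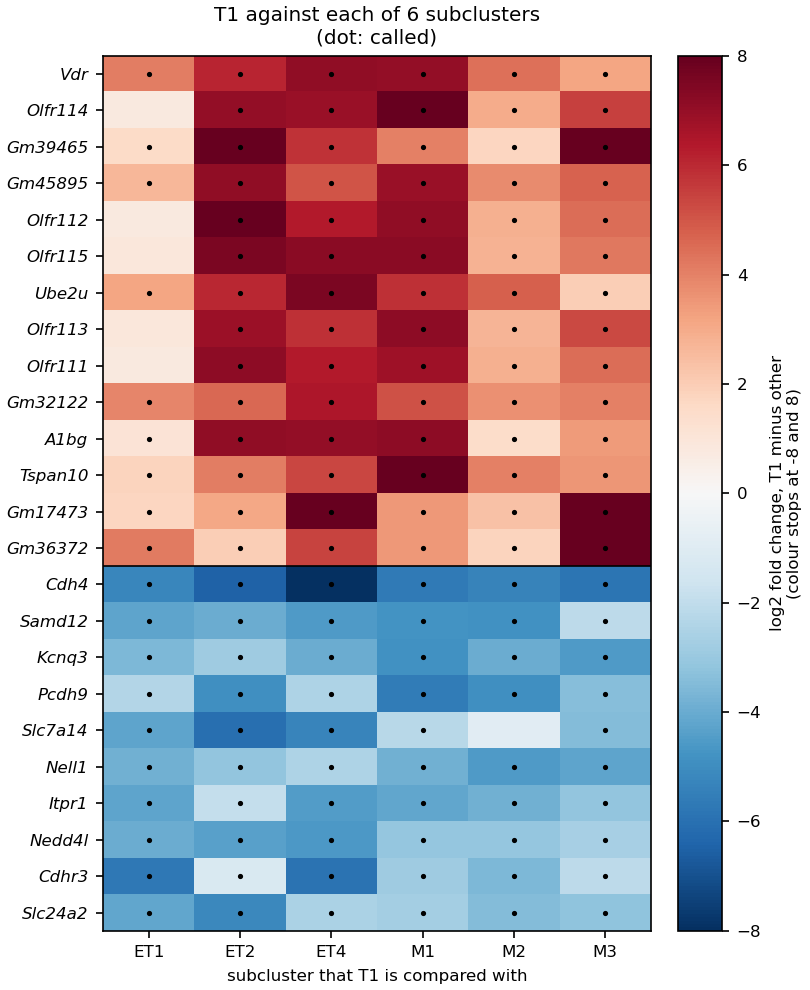
Log2 fold change of T1 against each of the 6 other subclusters (columns) for genes named as higher (above the line) and lower (below it, both as rows), with a dot where the gene was called. Most squares carry a dot, and the Olfr genes lack one against ET1.

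ET1 and M2 were compared with T1 directly, since they are its neighbours on the path of types that the study used. They also share the Olfr block with it. Against ET1, the largest positive differences by the naming rule were in genes near 0 in ET1. Slc9a4, a sodium-proton exchanger, was at 11, 9.32 and 10.3 CPM in T1 and 0.516 ± 0.367 in ET1 (log2 fold change 4.66). Drd3, the dopamine D3 receptor, was at 6.66, 4.42 and 4.90 CPM and 0.217 ± 0.247. The 2 ET1 UMIs of Drd3 make T1 26.4-fold higher with a 95% counting interval of 7.20 to 219.6. Such intervals are for UMIs pooled over the mice and leave out the spread between mice. The complement gene C7 was at 4.67, 6.07 and 5.57 CPM and 0.165 ± 0.285, a ratio of 19.3 (6.52 to 94.5) from 3 UMIs in ET1. Gm36372, described above, followed with 4.14. The antisense gene 1700109G14Rik was at 5.96, 4.95 and 4.42 CPM in T1 with 0 UMIs in ET1, at least 17.4-fold higher when ET1 is set to a floor of 3 counts over its 3 libraries. In the other direction, Pip5k1b, a kinase that makes the membrane lipid PIP2, was at 10.0, 15.6 and 7.79 CPM in T1 and 679, 756 and 482 CPM in ET1 (log2 fold change -5.77). Mro was at 1.05, 2.12 and 0.961 CPM against 80.1 ± 24.8 in ET1 (-5.71), and Ccbe1, a secreted factor of lymphatic growth, at 1.05, 1.41 and 2.21 CPM against 91.8 ± 21 (-5.83). Nup62cl was at 0.208 CPM on average in T1 and 15.8 in ET1. Pip5k1bos, the antisense partner of Pip5k1b, was at 0.0517 CPM and 8.22, with 2 UMIs in all T1 nuclei, so that ET1 was 149-fold higher with a counting interval of 40.03 to 1251, and these 2 genes cannot be told apart if strand was not used. The T1 and ET1 libraries of all these genes did not overlap.

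Against M2, the log2 fold changes were 5.07 for Barhl2, 4.76 for Ube2u and 4.39 for Vdr. Vwc2l, a secreted protein with a von Willebrand domain, stood at 26.3, 29.7 and 20.4 CPM in T1 and at a mean of 1.00 CPM in M2 (4.58), and was higher still in ET1 (55.5 CPM). Gm49116 stood at 109, 156 and 144 CPM in T1 and 6.66 in M2 (4.30), again with more in ET1 (233 CPM). Lower in T1 than in M2 were Samd3, with 0, 0.531 and 0.288 CPM against a mean of 23.2 in M2, and Npr3, a clearance receptor of natriuretic peptides, with 0.117, 0.177 and 0.0961 CPM against 10.2. Smpx stood at 0.117 CPM on average in T1 against 8.05 in M2, Cgnl1, a junction protein, at 0.674 against 34.7 and the prostaglandin receptor Ptger3 at 1.39 against 57.0. These 5 differences ran from -6.06 to -5.39 on the log2 scale, with no overlap between the T1 and M2 libraries.

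Genes were then read in lists by role, with the calls against the mean of the other 6 set beside the 6.68% called higher and 5.5% called lower over all genes. Transcription factors of projection neurons numbered 52, of which 49 passed the filter, 11 were called higher and 12 lower. The lower ones numbered 7 without nuclei that hold 2 or more UMIs of inhibitory markers, and 8 when mouse 1 or mouse 2 was left out. Barhl2 was the largest increase. Neurod6, a neuronal basic helix-loop-helix factor, stood at 12.5, 9.96 and 10.8 CPM (log2 fold change 2.08) and was at a mean of 16.7 CPM in ET1. Vgll2, a transcription cofactor, was called higher (2.47) at 4.91, 2.54 and 3.36 CPM with means of 0 to 1.37 CPM in 4 subclusters, yet M2 had a mean of 28.1 CPM, and against the summed nuclei of the other 6 its sign reversed to -1.73. Without mouse 2 (adjusted p = 0.059) and with DESeq2 (0.542) it was not called. Ebf1, an early B-cell factor family member, stood at 1.05, 5.84 and 2.11 CPM (-3.65), with its highest mean in M1 (1840 CPM). Pbx3, a homeodomain partner of Hox proteins, stood at 18.8, 35.4 and 13.2 CPM (-2.70), and Foxo1 at 8.18, 8.67 and 6.54 CPM (-2.18).

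The study named 5 regulators for T1 and 3 were called higher, a list also drawn from these samples. Hlf, a PAR-family leucine zipper factor, stood at 174, 194 and 163 CPM in T1, above all 18 other libraries, whose highest was 124 CPM (log2 fold change 1.67, SE 0.09). Cux2, a cut-homeodomain factor of upper cortical layers, stood at 675, 596 and 623 CPM (1.32) with ET1 at a mean of 755, and fell to 0.97, under the fold for a call, against the summed nuclei of the other 6. Rcor1, a corepressor, stood at 145, 137 and 142 CPM (1.03) with ET1 at 200.2, and was called in 10 of 14 alternative analyses. Cux1, at 598, 575 and 554 CPM with a log2 fold change of 0.93, and Bcl11a, at 308, 358 and 324 CPM with 0.78, were under the fold required for a call. Hlf was the one regulator whose T1 libraries all lay above those of ET1.

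Vdr acts as a heterodimer with retinoid X receptors and induces enzymes that break down vitamin D. Of 16 genes of vitamin D signalling 10 passed the filter, and edgeR and DESeq2 both called 1, Vdr itself, with a median log2 fold change of 0.05 over the 10. Too low to be tested were Rxra, Cyp24a1, Cyp27b1, Cyp2r1, Trpv6 and S100g, among them the enzymes that make and break down the hormone. Among 42 nuclear receptors, 32 were tested, 2 were called higher and 2 lower. Beside Vdr, Pparg, a receptor for fatty acid ligands, was called higher, at 87.7, 81.3 and 88.9 CPM (log2 fold change 1.62), with ET1 at a mean of 95.9 CPM. Thrb, a thyroid hormone receptor, stood at 5.96, 3.48 and 3.17 CPM (-2.44), and Nr4a1, an immediate-early gene, at 1.99 to 9.23 CPM (-1.03), called in 7 of 14 alternatives.

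The sarcoglycan and dystrophin complex spans the cell membrane and links the cytoskeleton to the extracellular matrix. Of 16 of its genes 15 were tested, 3 were called higher and 2 lower, with a median log2 fold change of 0.07 that turned to -0.05 without TMM scaling of the library sizes. Sgcd, delta-sarcoglycan, stood at 1504, 1205 and 1257 CPM (1.84) above all other libraries, the highest of which was 1091 CPM. Sgcz, zeta-sarcoglycan, stood at 2998, 3329 and 2774 CPM (1.66), with means of 3798 CPM in ET1 and 3661 in M2. Utrn, utrophin, stood at 131, 113 and 119 CPM (1.76), with 165 in M2. Against the summed nuclei of the other 6, in which large subclusters weigh more, Sgcz (0.43) and Utrn (0.56) were not called. Dmd, dystrophin, stood at 62.1, 50.8 and 60.3 CPM (-1.02), near ET1 (45.3) and ET4 (43.8), and was called in 8 of 14 alternatives. Sntg2, a syntrophin, stood at 3.39, 4.01 and 2.50 CPM (-2.27). Of these 5 genes, Sgcd alone had T1 libraries above every other library.

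Calcium channels were called in both directions, 3 higher and 3 lower of 16, with a median of 0.27. The higher ones were pore subunits Cacna1h and Cacna1g of the T-type, which opens near rest, and the auxiliary subunit Cacnb4. Cacna1h stood at 47.5, 39.9 and 42.9 CPM in T1, above all others, with M2 next at a mean of 24.2 CPM ± 7.42 (log2 fold change 3.08, SE 0.16). Cacna1g stood at 29.7, 32.0 and 26.0 CPM (2.35), though ET2 had a mean of 37.9 CPM ± 8.54. Cacnb4 stood at 2359, 2129 and 2091 CPM (1.26), equal in mean to M2 within the spread (2204). The third T-type pore gene, Cacna1i, went the other way, at 3.62, 6.66 and 3.46 CPM in T1 and 212 in ET4 (-1.49), as did the auxiliary Cacna2d2 (-2.20) and the L-type pore gene Cacna1c (-1.19). Of 10 sodium channel genes, Scn9a was called higher, at 86.1, 83.3 and 91.1 CPM (1.31) with ET1 at 162, and Scn3b lower, at 8.41, 14.7 and 7.98 CPM (-1.41). Against the summed nuclei of the other 6, Cacnb4 (0.57) and Scn9a (0.35) were not called. Of 64 tested potassium and HCN channel genes 6 were called higher and 16 lower (median -0.25). Kcna2, a delayed rectifier of axons, stood at 340, 294 and 339 CPM, above all 18 others (1.47), and the leak channel Kcnk9 at 34.3, 32.8 and 25.9 CPM (1.5), level with ET2 (32.3). Kcnq3 was the largest decrease, followed by Kcna6 (0.922 CPM on average, -2.90) and Kcnc2, a fast delayed rectifier (6.42, 8.37 and 6.82 CPM, -2.78).

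Among 32 tested genes of glutamate receptors and their auxiliary proteins, 6 were called higher and 11 lower (median -0.21). Grin2c, an NMDA receptor subunit, stood at 71.5, 48.2 and 46.3 CPM (log2 fold change 3.28), with M2 at a mean of 63.6 CPM and the other 5 at or below 13.9, and was not called against the summed nuclei of the other 6 (0.98). Cnih3, an AMPA receptor auxiliary protein, stood at 69.6, 48.5 and 63.1 CPM (2.18), with M3 next at 45.1. Gria4, an AMPA receptor subunit, stood at 4318, 5417 and 4781 CPM (1.99), with ET1 (5782) and ET4 (7060) above it. Shisa6, an AMPA receptor partner, stood at 4.79, 16.8 and 4.23 CPM (-4.47) against means of 488, 2137 and 4381 CPM in ET1, ET2 and ET4. The NMDA subunit Grin2a stood at 3.5, 10.1 and 3.17 CPM (-3.36) against means of 211, 59.2 and 517 CPM in ET1, ET2 and ET4, and the metabotropic receptor Grm2 at 1.52, 1.24 and 0.673 CPM (-2.43). The lowest mean among the other 6 was that of M2 for both Shisa6 (13.9 CPM) and Grin2a (9.78 CPM).

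GABA receptor genes showed 2 higher and 4 lower of 17 tested. Gabrb2, a beta subunit, stood at 1502, 1349 and 1575 CPM in T1, above all 18 others, whose highest was 1095 CPM (log2 fold change 1.5). Kctd16, an auxiliary subunit of the GABA-B receptor, stood at 264, 367 and 332 CPM (2.29), level with ET4 (319). Lower were the receptor subunits Gabra2, at 3.5, 12.9 and 8.55 CPM (-3.01), and Gabrg3, at 10.0, 10.9 and 9.23 CPM (-2.74), and the GABA-B subunit Gabbr2, at 1.75, 3.71 and 3.08 CPM (-2.70). M2 was as low as T1 for Gabbr2 (2.58 CPM).

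Receptors for neuromodulators gave 6 higher and 5 lower of 26 tested, with 2 lower when mouse 2 was left out. Drd3, described above, had a log2 fold change of 3.69, with M2 next at 3.1 CPM. Htr5a, a serotonin receptor, was higher than each of the other 6, with a mean of 26.1 CPM ± 3.09 in T1 and 11.9 ± 4.50 in ET1 (2.35). Hrh2, a histamine receptor, stood at 67.6, 61.0 and 68.1 CPM (2.17), with ET1 at 61.9. Chrna3, a nicotinic receptor subunit, stood at 1.28, 0.943 and 0.192 CPM (-2.71) and the muscarinic receptor Chrm2 was lower as well (-1.84). Chrna3 was not called without mouse 2 or with nuclei thinned to 4000 UMIs, nor Chrm2 (-0.97) without nuclei that hold 2 or more inhibitory UMIs. Neuropeptide genes gave 4 higher and 3 lower of 23, with 1 lower when mouse 1 or mouse 2 was left out. Gal, the precursor of galanin, had a mean of 39.1 CPM ± 12.7 in T1 and 14.1 ± 4.09 in ET1, and was called against each of the other 6 (2.92). Cck, the precursor of cholecystokinin, long used to mark tufted cells, had 688 CPM ± 105 in T1, 595 ± 168 in ET1, 778 ± 307 in ET4 and 775 ± 167 in M3, against 148 in M1 and 121 in M2 (1.13). These 4 means with high Cck did not separate from each other beyond their spread. Of 21 tested peptide receptors 4 were higher and 6 lower, where the lower ones numbered 2 without mouse 1, 3 without mouse 2 and 2 with nuclei thinned to 4000 UMIs. Among the higher ones were the relaxin receptor Rxfp1 at 81.6, 53.5 and 45.4 CPM (2.73) below ET1 (201), and the leptin receptor Lepr at 21.5, 13.6 and 13.1 CPM (2.34) level with M2 (17.7). Against the summed nuclei of the other 6, Rxfp1 (0.86) and Lepr (0.82) were not called. Oprm1, the mu opioid receptor, stood at 4.09, 4.89 and 2.88 CPM, below all 18 others, whose lowest was 11.2 CPM (-2.98).

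**Figure D4:**
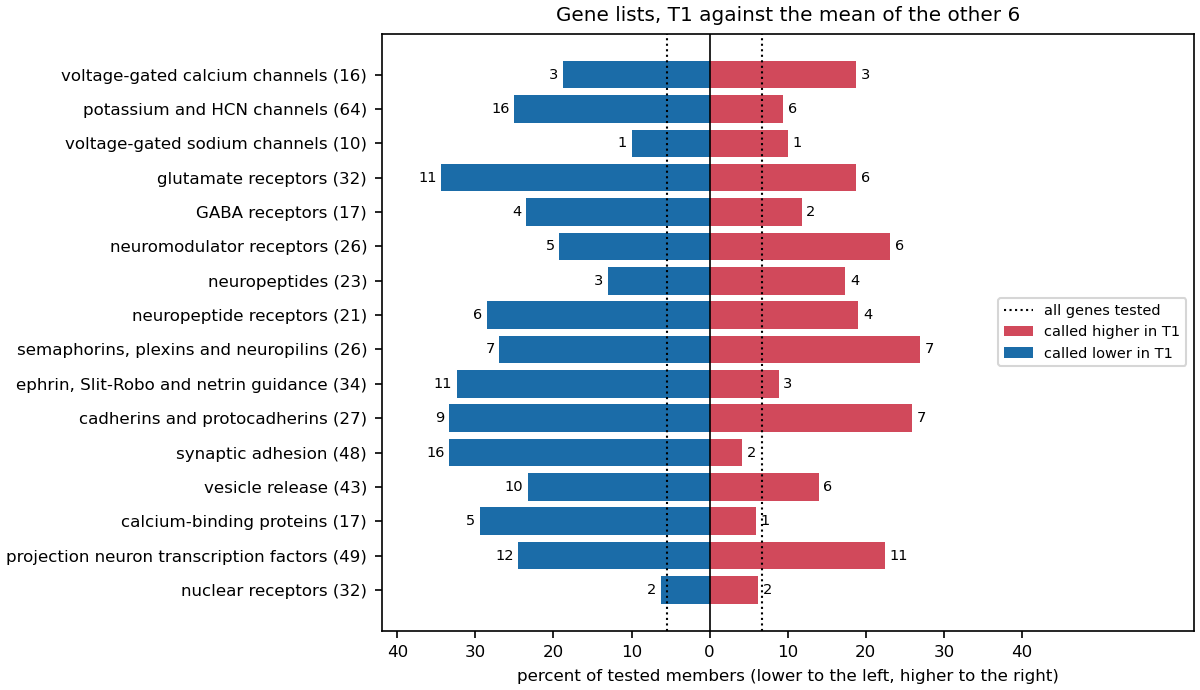
Share of tested genes of each list called higher (right) or lower (left) in T1 against the mean of the other 6, with the number tested in brackets, the number called at each bar and dotted lines at the share over all genes. Synaptic adhesion has 16 genes lower and 2 higher, while calcium channels have 3 each way.

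Axon guidance genes encode ligands and receptors that steer growing axons. Semaphorins, plexins and neuropilins gave 7 higher and 7 lower of 26 tested, with 4 lower when the M3 libraries were left out. The receptor Nrp1 had a mean of 502 CPM ± 48.3 in T1 and 414 ± 15.4 in M2, against 110 ± 11.4 in ET1 (log2 fold change 2.27), and Nrp2 was lower, with 13.6 ± 1.05 against 608 ± 198 in M1 and 120 ± 23.4 in M3 (-1.13). ET1 (2.27 ± 0.346 CPM) and ET4 (1.80) had less Nrp2 than T1. Sema5b stood at 303, 304 and 317 CPM (2.53), with ET1 at 394, and the receptor Plxna4 at 484, 474 and 453 CPM, above all others (1.57). Of 34 ephrin, Slit and netrin genes 3 were higher and 11 lower (median -0.32), with 6 lower when mouse 2 was left out. Efna5, an ephrin ligand, stood at 601, 531 and 576 CPM, above all others (1.56), while Epha10, an Eph receptor, at 4.09, 3.36 and 1.63 CPM, was lower than each of the other 6 (-2.68). The ligand Efnb3 stood at 3.5, 4.13 and 2.31 CPM (-2.69).

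Among synaptic adhesion genes, more were called lower than higher. Of 48 tested, 2 were called higher (4.17%), 16 lower (33.3%) and 30 neither, with a median log2 fold change of -0.31. Nlgn1, neuroligin 1, was higher, at 6639, 7462 and 6929 CPM (2.02), with ET1 above it (11492). Lrrtm3 stood at 152, 155 and 114 CPM (1.01) and was called in 7 of 14 alternatives. Cntnap5b, a contactin-associated protein, stood at 7.94, 10.2 and 8.55 CPM, below all 18 others, whose lowest was 28.9 CPM (-3.35, SE 0.14). Slitrk1, a postsynaptic organizer, stood at 0.818, 2.54 and 0.961 CPM (-3.09), and Adgrl2, a latrophilin, was detected with a mean of 0.059 CPM in T1 against 45.9 in M1. Cadherins and protocadherins gave 7 higher and 9 lower of 27. Cdh20 stood at 241, 292 and 293 CPM (2.17), as high as ET1 (266), and Cdh13 at 316, 266 and 294 CPM (1.87), with ET2 at 1300.1, though Cdh13 was not called against the summed nuclei of the other 6 (0.76). Cdh4, Pcdh9 and Pcdh19 (1.64, 2.30 and 1.83 CPM, -2.81) were the largest decreases.

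Genes of vesicle release gave 6 higher and 10 lower of 43 tested, with 6 lower when the M3 libraries were left out. Cplx3, a complexin, stood at 5.84, 3.48 and 4.13 CPM (log2 fold change 2.95), with ET2 next at 2.88, and the vesicle protein Sv2b at 440, 454 and 495 CPM (1.98), as in ET1 (489). Sv2b was not called against the summed nuclei of the other 6 (0.95). Rph3a, rabphilin, stood at 2.34, 2.06 and 1.25 CPM (-2.82), as low as M2 (1.71). Calcium-binding proteins gave 1 higher and 5 lower of 17, with 3 lower when mouse 1 was left out. Necab2 was higher than each of the other 6, at 14.6, 10.6 and 9.61 CPM against at most 6.18 (2.07), and Vsnl1, visinin-like 1, was lower, at 24.8, 35.3 and 14.4 CPM against a mean of 3545 in ET4 (-2.94). Calb2, calretinin, stood at 20.9, 42.7 and 18.3 CPM (-1.55). Among the general markers of projection neurons, the vesicular glutamate transporter Slc17a7 stood at 491, 338 and 413 CPM (0.93, not called), and Slc17a6, its relative, had a mean of 17.6 CPM ± 2.18 in T1, against 44.4 ± 5.78 in ET1 and 258 ± 10.4 in ET2 (-2.13). M2, at 12 ± 2.74, was the one type with a lower mean of Slc17a6.

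The markers were then read nucleus by nucleus. To compare types of different depth, each nucleus was thinned to 4000 UMIs, which left out 15, 4 and 17 T1 nuclei. At this depth a UMI of Olfr111 was found in 93.9% ± 0.541 of T1 nuclei (SD, n = 3), 72.1% ± 5.17 of ET1 nuclei and 20.1% ± 3.45 of M2 nuclei. Barhl2 was found in 20.9% ± 1.07 of T1 nuclei against 1.68% ± 0.996 in ET1, and Vdr in 13.2% ± 0.351 against 0.741% ± 0.920. Olfr110 was found in 34.6% ± 2.75 of T1 and 32.2% ± 7.37 of ET1 nuclei. In the inhibitory main cluster 0, where these genes serve as a measure of free RNA, the shares were 1.10% for Olfr111 and 0.166 to 0.309% for the others. Main cluster 0 is a low background for Olfr111, at 3.28 CPM against 9.68 CPM over all nuclei that were not subclustered. The median depth before thinning was 15963, 14666 and 18376.5 UMIs in the T1 nuclei kept and 7134.5, 7676 and 9142 in main cluster 0. Without thinning, the T1 shares were 50.4% for Barhl2, 36.7% for Vdr and 96.5% for Olfr111, so that the lower values reflect counts that a shallow nucleus misses. No nucleus can be called negative for Barhl2 or Vdr at this depth.

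**Figure D5:**
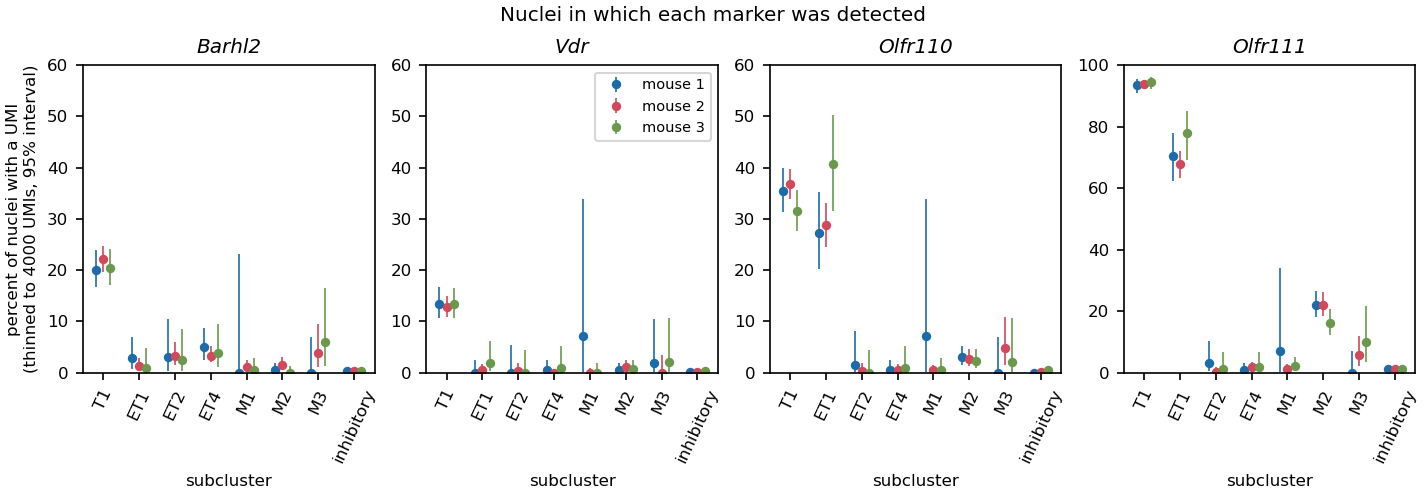
Percent of nuclei with at least 1 UMI of each marker after thinning to 4000 UMIs, 1 point per mouse with its 95% interval, for the subclusters and the inhibitory main cluster 0. T1 points lie above all others for Barhl2 and Vdr, with the widest interval of Vdr in M1 of mouse 1, and Olfr110 points of T1 and ET1 overlap.

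The 4 markers Barhl2, Vdr, Olfr110 and Olfr111 were also counted together in each thinned nucleus. In T1, 12.4%, 15.1% and 13.2% of nuclei of mice 1, 2 and 3 held a UMI of 3 or more of them, and 4.93%, 4.45% and 4.15% held a UMI of 0 of them. In ET1, 0.699%, 0.905% and 0% held 3 or more, where 0 of 113 nuclei allows a share of up to 2.65%, and 26.6%, 29.9% and 18.6% held 0. In main cluster 0, 0 nuclei of 1198, 5175 and 909 held 3 or more, which allows shares of up to 0.25%, 0.058% and 0.33%. In each mouse the share with 3 or more was higher in T1 than in ET1, and the share with 0 was lower.

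The spread of counts among T1 nuclei was read gene by gene. The measure is the mean squared residual of a gene's counts over nuclei of a mouse, which is 1 for counts that vary only by sampling, and its median over ranked genes was 1.73, 1.58 and 1.80 in mice 1, 2 and 3. The 10 genes with the highest value in mouse 2 were chosen, so mice 1 and 3 show whether the order recurs. Malat1, a nuclear RNA, had 122 in mouse 2 and 98.0 and 113 in mice 1 and 3. Cntnap2, an axonal adhesion protein, had 64.5 in mouse 2 and 69.1 and 74.4 in the others, Galntl6 49.5 against 43.1 and 54.8, and Kcnip4, a potassium channel auxiliary protein, 35.4 against 39.9 and 47.0. Ptprd, Sgcz, Egfem1, Nlgn1 and Mgat4c lay between 14.9 and 46.9 in all mice. Ptgds, a prostaglandin synthase, was high in mice 2 (53.2) and 3 (38.4) but not in mouse 1 (4.36), and without nuclei that hold 2 or more UMIs of inhibitory markers it was 85.2 in mouse 2 and 2.07 in mouse 3. The measure grows with a gene's mean count, so genes of different abundance are not ranked by it alone. Of the T1 markers, Barhl2 was at 1.82 to 2.11 with 0.963 to 1.21 UMIs per nucleus, Vdr at 1.70 to 1.84 with 0.597 to 0.843, and Olfr111 at 6.64 to 7.12 with 24.1 to 27.7. Thinning to 4000 UMIs lowered the median of the 10 genes over mice 1 and 3 from 35.8 to 11.3.

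Markers of other cells were summed for each class as CPM. The 11 inhibitory neuron markers summed to 80.7 to 232 CPM in T1, 71.4 to 213 in M2 and 188 to 910.0 in ET2, and edgeR and DESeq2 both called 0 of the 11, with 3 at an unadjusted p under 0.05. With the mouse as a block 1 of them was called lower in T1, and without TMM scaling 2. Nuclei with 2 or more inhibitory UMIs made up 22.0%, 46.3% and 19.7% of T1 in mice 1, 2 and 3. Leaving them out in all types gave 780 genes called higher and 591 lower. Astrocyte markers summed to 38.4 to 51.6 CPM in T1, the lowest range among the types, microglia markers to 37.6 to 42.9, vascular markers to 8.78 to 10.6, oligodendrocyte precursor markers to 8.07 to 13.3, ensheathing glia markers to 19.2 to 42.6 and immature neuron markers to 289 to 335. Oligodendrocyte markers summed to 109 to 142 CPM in T1, a mean of 126 against 81.4 to 106 in ET1, ET2, ET4, M1 and M2 and 128 in M3. Most of it was Mbp, which encodes a myelin protein and stood at 90.7 to 98.7 CPM in T1 against 29.0 to 82.1 elsewhere (log2 fold change 1.01, called in 7 of 14 alternatives). Flt1, a vascular marker, was also called higher (1.57), as was the astrocyte marker Aldh1l1 (1.01, called in 7 of 14 alternatives), at 2.98 to 4.44 and 5.54 to 8.99 CPM. The part of such RNA in the calls was otherwise not tested. The GFP transcript of the virus stood at 6.66, 30.9 and 18.6 CPM in T1 and did not differ from the mean of the other 6 by the test (log2 fold change -0.37, adjusted p = 0.557). It was at 9.97, 93.9 and 72.7 CPM in ET4, at 3.46, 15.7 and 5.63 CPM in M2, and at 74.0, 125 and 120 CPM in the inhibitory main cluster 0, so GFP counts did not mark T1.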

How the data were processed

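Nuclei of 3 mice were analysed, 1 library each. The authors deposited raw UMI counts per gene and nucleus, produced by Cell Ranger (version 3.0.2 in the file headers) and aligned to mm10 (GRCm38) per the submitters' processing notes, and an annotation of retained nuclei (at least 1000 genes and at most 5% mitochondrial counts by the study's methods). Whether counting used strand, and how reads matching several genes were counted, is not given in the sources used here.

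Counts of the annotated nuclei, which matched the deposited UMI totals, were summed per subcluster and mouse into 21 libraries of 161593 to 16961469 UMIs. They were tested with edgeR 4.0.16 (R 4.3.3) by a quasi-likelihood fit with TMM scaling and the filterByExpr filter, which kept 14696 of 31055 genes. Script steps in Python 3.11.15 and R were tested on simulated data. Cells of a mouse are not replicates, and n is 3 mice. The test takes its error from the spread between libraries, and the number of UMIs sets the counting error only. Among T1 nuclei, mice 1 and 2 shared 1 barcode, and mouse 3 shared 0 with either. No doublet caller was run, and alternatives left out nuclei of high or inhibitory UMI counts instead. The same mice supply each subcluster, so samples are paired by animal. T1 and the other types of a mouse deviated together (mean r = 0.167, above 0.1 in 14 of 18 pairs, against -0.0836 between mice).

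Named genes were the 15 highest and 10 lowest fold changes among called genes with at least 5 CPM and no overlap with the 18 other libraries, the first 5 per direction against ET1 and M2, and the leading called members of each list. A few of these are not reported here. Members, lists and tests were chosen with earlier results of these data known. Coordinates are from GENCODE M21, matched by Ensembl identifier for 30934 genes, and the 250-base windows from RefSeq. Alternatives changed the scaling, filter, tool, nuclei, depth and replicates.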

Additional observations from a re-analysis of the deposited data

Results flagged for a closer look

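T1 markers were present in subclusters of the excitatory set that entered no comparison, above their level in the inhibitory main cluster 0 (Barhl2 0.832 CPM, Vdr 0.455, Olfr110 0.283 and Olfr111 3.28). Subcluster 2 (943 nuclei) had 19.1 CPM of Barhl2, 12.1 of Vdr, 51.5 of Olfr110 and 583.6 of Olfr111, with Barhl2 at 27.9, 16.5 and 30.1 CPM and Vdr at 17.6, 10.9 and 15.1 in mice 1, 2 and 3. Subcluster 9 (89 nuclei) had 20.7 CPM of Barhl2, 9.08 of Vdr, 39.3 of Olfr110 and 454.9 of Olfr111. These pooled values rest mostly on mouse 2 (72 of the 89 nuclei), and in mice 1, 2 and 3 Barhl2 was at 57.9, 16.5 and 8.93 CPM and Vdr at 20.7, 5.27 and 22.3. Subcluster 8 (126 nuclei) had 16.4 CPM of Barhl2, 3.20 of Vdr, 25.6 of Olfr110 and 200.2 of Olfr111, with Barhl2 at 29.4, 8.73 and 18.5 CPM by mouse, Vdr at 0, 4.36 and 3.22 and Olfr110 at 55.9, 36.0 and 9.67. Gad1, an enzyme of GABA synthesis, stood at 302 CPM in subcluster 2, 66.1 in subcluster 8 and 271 in subcluster 9, against 38.9 in T1. The part of inhibitory RNA in these values was not tested.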

How the results depend on the processing

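The number of genes called higher than the mean of the other 6, 982, was 1557 with no filter on low counts and 530 against the summed nuclei of the other 6. The number called lower, 808, was 1134 against the summed nuclei, so that more genes were then lower than higher. In that comparison Ros1 (-1.37), Tbx21 (-0.67) and Vgll2 (-1.73) reversed. Fitting each mouse as a replicate block gave 975 higher and 832 lower, and the pairing by animal changed neither count by over 1.5 times. Without TMM the median over all genes moved to -0.12 and the counts to 812 and 976. Called higher than each of the other 6 were 43 with DESeq2 and 35 to 57 (from 69) when 1 mouse was left out. Called lower than each were 32 with nuclei thinned to 4000 UMIs. Leaving out the M3 libraries, an alternative chosen after seeing the data, gave 989 and 799. The share of T1 was 30.8% of all subclustered nuclei. Shares of nuclei with a UMI at 8000 UMIs and unthinned were 35.3% and 50.4% for Barhl2, 23.7% and 36.7% for Vdr, 51.6% and 63.8% for Olfr110, and 96.7% and 96.5% for Olfr111. The median spread of the 10 genes was 11.3 after thinning. These follow from the number of UMIs kept, and for the other changes the cause was not tested. Depth limits calls of low genes.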

Other observations

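Pooled over mice, main clusters that the annotation does not subcluster also differed from main cluster 0 in Olfr111, which stood there at 3.28 CPM. It was at 54.5 CPM in cluster 9, 57.4 in cluster 11, 54.3 in cluster 16 and 70.3 in cluster 19, on 417, 373, 115 and 96 UMIs. Over all nuclei that were not subclustered it was at 9.68 CPM. In mice 1, 2 and 3 Olfr111 was at 76.8, 59.2 and 19.6 CPM in cluster 9 and 31.4, 60.1 and 62.5 in cluster 11. In cluster 16 it was at 3.19, 68.5 and 0 CPM, with 114 of the UMIs from mouse 2. In cluster 19 it was at 7.03, 104 and 65.2 CPM, with 85 of the UMIs from mouse 2. Main cluster 0 had 3.54, 2.40 and 7.35 CPM. Main cluster 20 (146 nuclei) held 7.27 CPM of Barhl2, 12.1 of Vdr, 17 of Olfr110 and 167 of Olfr111. These pooled values rest on few UMIs (6 of Barhl2, 10 of Vdr, 14 of Olfr110 and 138 of Olfr111) and differed between mice 1, 2 and 3, with Barhl2 at 65, 3.55 and 0 CPM, Vdr at 0, 8.89 and 24.9, Olfr110 at 16.2, 3.55 and 54.8 and Olfr111 at 455, 58.6 and 384.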
